A study of Homo sapiens with 4 samples.

Results

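The snoRNA host genes GAS5, SNHG1, SNHG5, SNHG6, SNHG8, SNHG12 and ZFAS1 were examined as a group. They are 7 of the 62700 genes of the GENCODE 44 annotation and were picked by gene name; the rule uses no measured value, but the names were proposed with earlier results of these data in view. Crosslinking of PR100-FLAG, a dipeptide repeat protein of 100 proline-arginine units with a triple FLAG tag, was measured by iiCLIP in HEK293T. Poly(PR) is a dipeptide repeat protein made from the expanded C9orf72 repeat of inherited ALS and frontotemporal dementia. In iiCLIP, UV light links a protein to the RNA it touches, the complexes are purified through the tag, and reverse transcription stops at the link. HEK293T derives from human embryonic kidney and grows as an immortal culture. All 4 libraries belong to this condition: cells were transiently transfected with the plasmid, kept in 150 ng/ml doxycycline for 24 h and exposed to UV light of 254 nm at 160 mJ/cm2. Replicates 1, 2 and 3 went through SDS-PAGE, and replicate 4 was purified on beads. Overexpressed, tagged peptide was therefore studied in a single cell line, and no labels tie the replicates to separate cultures, so spreads and p-values describe these 4 libraries and may be technical. Control libraries were not analysed here, so binding above background could not be measured, and the abundance of the RNAs was not measured either: more RNA and more binding per RNA cannot be told apart.

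The value used throughout is the crosslinking event, a unique cDNA that stopped next to a crosslinked nucleotide. The libraries held 125694 to 604816 events, with replicate 3 the smallest and replicate 2 the largest. Replicate 3 stood apart in further ways. It had the shortest random barcode (5 nt instead of 7) and 2.16 events per position, against 1.15 to 1.67 in the others. CPM, the count scaled to a library of 1000000 events, allows libraries to be set side by side, and an absence of events in replicate 3 still allows a level of up to 23.9 CPM (3 events), counting error only.

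Small nucleolar RNAs (snoRNAs) guide the chemical modification of ribosomal and spliceosomal RNA. Box C/D snoRNAs, whose genes are named SNORD, direct 2′-O-methylation with the core proteins FBL, NOP56, NOP58 and SNU13, and box H/ACA snoRNAs, named SNORA, direct pseudouridylation with DKC1, GAR1, NHP2 and NOP10. In human cells most of them are cut from introns of a host gene: the host pre-mRNA is spliced, the intron is debranched, and exonucleases trim it to the ends that the core proteins protect. The 7 hosts studied here code for no long protein. Their spliced exons leave the nucleus as non-coding RNAs, several of which are substrates of nonsense-mediated decay, whereas the snoRNAs stay in the nucleus. Events in exons can come from the spliced host RNA or its precursor, and events in snoRNAs from the processed small RNA or from a precursor that still holds it.

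Most events lay on the embedded snoRNAs and few on the host exons, against the name of host transcripts: 62 of the 2190 events of the group lay in exons of the canonical transcripts. The count in exons holds for 1 transcript per host. The exons of all annotated transcripts, given precedence over intron, held 72.1% of the events, and without transcripts annotated as retained introns 53.0%. Both shares were taken with GENCODE snoRNAs, which lack all those of GAS5, so events on the missing snoRNAs could count as exonic. With RefSeq snoRNAs added and 5 nt on either side, snoRNAs held 90.6% of the events (mean of 4 libraries). Events went to snoRNAs before exons, so this last share does not depend on the exon set. The sequences below show where the events were. They are the host strand of GRCh38, written 5′ to 3′ in DNA letters with 10 nt of intron before the first nucleotide of the RefSeq entry, and capitals mark each nucleotide that held at least 5% of the events of that snoRNA. The first 4 were picked with their values known, because most of their events lay just before the snoRNA.
SNORD80: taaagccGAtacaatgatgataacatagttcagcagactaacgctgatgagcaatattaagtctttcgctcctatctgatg
SNORD44: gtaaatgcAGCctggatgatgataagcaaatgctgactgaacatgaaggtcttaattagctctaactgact
SNORD47: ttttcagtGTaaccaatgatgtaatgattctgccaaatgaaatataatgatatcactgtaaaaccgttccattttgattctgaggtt
SNORD50A: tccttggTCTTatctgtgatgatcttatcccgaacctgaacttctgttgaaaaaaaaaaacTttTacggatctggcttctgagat
The other 4 were chosen in the same way as examples with events inside the snoRNA, at its first nucleotides or further in.
SNORD76: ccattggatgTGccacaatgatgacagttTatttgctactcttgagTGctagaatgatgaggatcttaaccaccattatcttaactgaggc
SNORD81: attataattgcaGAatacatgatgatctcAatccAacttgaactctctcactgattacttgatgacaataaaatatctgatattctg
SNORD75: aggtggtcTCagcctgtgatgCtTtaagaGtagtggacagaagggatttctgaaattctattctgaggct
SNORD26: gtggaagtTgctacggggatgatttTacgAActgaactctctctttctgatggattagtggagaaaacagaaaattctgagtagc
The printed stretches of SNORD80 (chr1:173864833-173864913), SNORD44 (chr1:173865968-173866038), SNORD47 (chr1:173864369-173864455), SNORD76 (chr1:173866635-173866725), SNORD81 (chr1:173864146-173864232) and SNORD75 (chr1:173866879-173866948) lie in introns of GAS5. That of SNORD50A (chr6:85677294-85677378) lies in SNHG5 and that of SNORD26 (chr11:62855292-62855376) in SNHG1, and all 8 are on the minus strand. In SNORD80, 2 capitals held 152 of 230 events, and in SNORD44, 3 held 128 of 156.

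The short sequences that give the class its name were searched on the sense strand. Box C was taken as TGATGA beginning in the first 25 nt of the snoRNA and box D as CTGA beginning in the last 20 nt. Of the 26 box C/D snoRNAs in the hosts, 17 held TGATGA there, 26 held CTGA, and 17 held both. Of 1027 windows of 75 nt, the median length of these snoRNAs, taken from the hosts outside the snoRNAs, 0 held both. In SNORD80 box C began at nucleotide 5 and box D at nucleotide 66, so the capitals at 3 and 2 nt before the first nucleotide lay ahead of box C. The last letters of CTGA can be the first of TGATGA, but the searched ends of these snoRNAs do not overlap.

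GAS5, the growth arrest-specific transcript whose spliced RNA accumulates in arrested cells, held 185, 460, 109 and 392 events in replicates 1 to 4. These came to 554, 761, 867 and 2182 CPM, or 1091 ± 739 CPM (SD, n = 4), and 727 ± 159 CPM without replicate 4. Replicate 4, the bead library, was the highest, and the 3 SDS-PAGE libraries lay close together. GAS5 held 52.3% of the group's events.

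SNHG1, which lies beside SLC3A2 and carries 8 named box C/D snoRNAs and a second SNORD22 locus in its introns, held 96, 200, 3 and 194 events. The levels were 287, 331, 23.9 and 1080 CPM, with a mean of 430 ± 454 CPM (SD, n = 4), and 214 ± 166 CPM without replicate 4. Replicate 3 was far below the others, whereas GAS5 was not low in that library. The cause of this difference between the hosts in replicate 3 was not tested.

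ZFAS1, a host of the SNORD12 family transcribed next to ZNFX1, held 69, 81, 7 and 45 events, at 162 ± 85.5 CPM (SD, n = 4). SNHG5, which carries SNORD50A and SNORD50B, held 23, 90, 7 and 61 events, at 153 ± 131 CPM (SD, n = 4), or 91.1 ± 50.4 CPM without replicate 4. Both were lowest in replicate 3, at 55.7 CPM each, and highest in replicate 4. The means of ZFAS1 and SNHG5 differed by less than the spread between libraries.

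SNHG6, the host of SNORD87, held 12, 62, 0 and 24 events, at 68.0 ± 61.0 CPM (SD, n = 4). SNHG12, the only host of the group with several box H/ACA snoRNAs, held 5, 27, 0 and 24 events, at 48.3 ± 59.8 CPM (SD, n = 4), or 19.9 ± 22.7 CPM without replicate 4. SNHG8, the host of SNORA24, held 1, 5, 3 and 5 events, at 15.7 ± 11.98 CPM (SD, n = 4). In the order of the means, each pair of neighbours differed by less than the larger of their SDs. These SDs include the high level of replicate 4, which all 7 hosts shared. Within libraries, GAS5 exceeded SNHG1, and SNHG5 exceeded SNHG6, in 4 of 4.

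**Figure D1:**
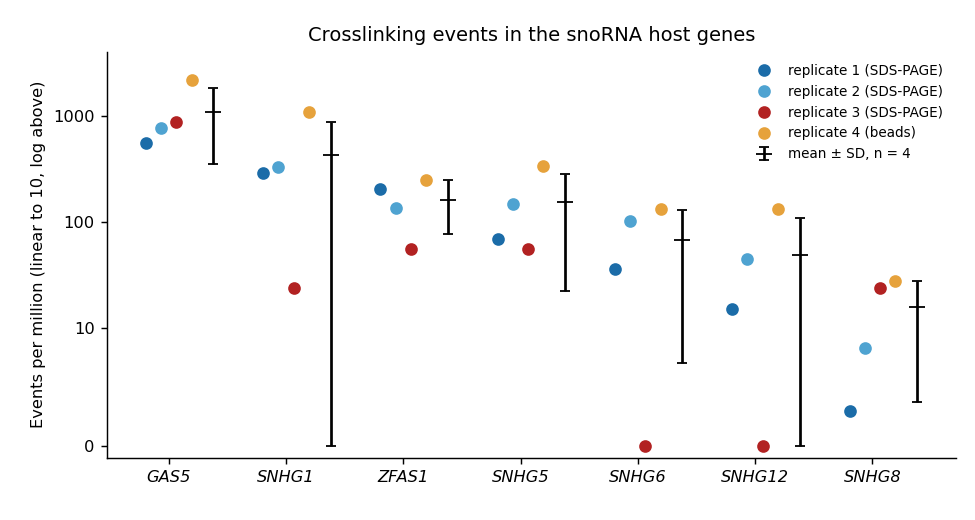
Crosslinking events in CPM (vertical axis, linear to 10 and logarithmic above) in each host gene (horizontal axis, by falling pooled count). Coloured points are the 4 libraries, and black bars are mean ± SD, cut at 0. Replicate 4 was the highest in all 7 hosts, and replicate 3 lay at 0 in SNHG6 and SNHG12.

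Summed over the group, the levels were 1170, 1529, 1026 and 4147 CPM, or 1968 ± 1468 CPM (SD, n = 4), and 1242 ± 259 CPM without replicate 4. The minimum of 200 pooled events that the study used at gene level, taken here without its filter on control libraries, was reached by GAS5 (1146 events), SNHG1 (493) and ZFAS1 (202), that is by 3 of 7. Of all annotated genes, 1.22% reached it. ZFAS1 passed by 2 events and SNHG5 missed by 19, and 2 hosts were left at 200 or more when any library was left out or when each crosslinked position was counted a single time. The opposite strand of the hosts held 18 events, 0.822% of the sense events.

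The hosts lie on different chromosomes. In GRCh38, GAS5 spans chr1:173858559-173868882, SNHG12 chr1:28578538-28583132 and SNHG1 chr11:62851978-62855953, all on the minus strand. SNHG5 spans chr6:85650491-85678932 and SNHG6 chr8:66920561-66926398, also on the minus strand. SNHG8 spans chr4:118278703-118285316 and ZFAS1 chr20:49278178-49299600 on the plus strand. The canonical transcripts have 3 to 12 exons. All 181 events of SNHG5 lie also in the same-strand gene ENSG00000271793, so they cannot be given to SNHG5 alone, whereas 194 of the 202 events of ZFAS1 lie in no other same-strand gene.

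Events were then split into embedded snoRNAs, exons of the canonical transcript and remaining intron. With the snoRNA genes of GENCODE 44, snoRNAs held 23.9% ± 10.9 (SD, n = 4) of the events of the group, exons 3.09% ± 1.22 and the remaining intron 73.0% ± 11.2. This split depended on the annotation. The exons of all transcripts held 72.1% ± 10.2 and left 4.02% ± 2.82 in intron (SD, n = 4), and without retained-intron transcripts the shares were 53.0% ± 5.29 and 23.1% ± 8.56. In the GENCODE 44 file used here no gene of type snoRNA lies inside GAS5, and the locations of SNORD29, SNORD31 and SNORD50A are also without such a gene. RefSeq lists these snoRNAs on the same genome. With RefSeq entries added, which was decided once this gap was found, 64.3% ± 6.27 (SD, n = 4) of the events lay in snoRNAs, 3.09% ± 1.22 in exons and 32.6% ± 6.84 in intron.

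Many of the intronic events that were left lay within 5 nt of a snoRNA. A snoRNA with the 5 nt on either side is called a snoRNA unit from here on. Units held 330, 853, 116 and 715 of the 391, 925, 129 and 745 events of the group in replicates 1 to 4, which is 90.6% ± 4.84 (SD, n = 4). Exons held 18, 28, 4 and 12 events, and the remaining intron 43, 44, 9 and 18, or 6.29% ± 3.65 (SD, n = 4). Units make up 2964 nt of the hosts, exons 17623 nt and remaining intron 60625 nt, so the pooled densities were 679 events per kb in units, 3.52 in exons and 1.88 in intron. In every library the unit share exceeded the share of exons and intron together.

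The share in units was high in each host. It was 94.7% ± 2.21 (SD, n = 4) in GAS5 and 95.7% ± 5.08 (SD, n = 4) in SNHG1. In ZFAS1 it was 77.6% ± 10.7 (SD, n = 4), and in SNHG5 71.4% ± 22.0 (SD, n = 4), where replicate 3 gave 3 of 7 events. SNHG6 and SNHG12, each with 3 libraries that held events, gave 84.8% ± 8.78 and 87.2% ± 11.1 (SD, n = 3). SNHG8 held 11 of its 14 events on SNORA24. ZFAS1 was the host with the most events left in intron, 41 in all, of which replicate 1 contributed 22. Outside units and exons, 8 intronic positions of GAS5, SNHG5 and ZFAS1 held 3 or 4 events, and at each of them all events came from a single library.

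Events in the exons were few and scattered. In GAS5, 15 events fell in 4 of the 12 exons, 8 of them in exon 8, and the last exon, which at 309 nt is the longest, held 0. In SNHG1, the last exon of 704 nt held 7 of the 17 exonic events. In ZFAS1, exon 2 held 8 of 11 exonic events, and the last exon of 4198 nt held 3. Exon 1 of SNHG6 held 5 of 8. The exons of SNHG5 and SNHG8 held 2 and 3 events.

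**Figure D2:**
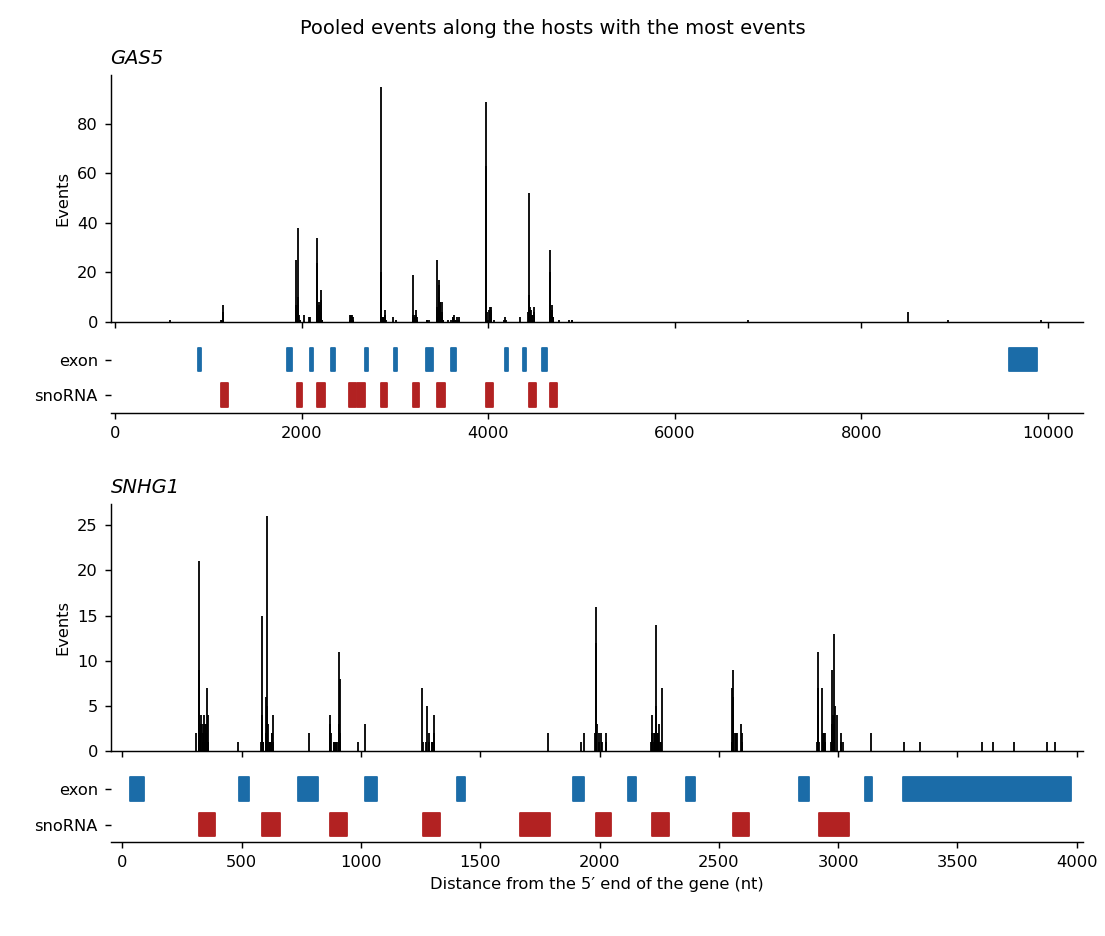
Pooled events at each position (vertical axis) along GAS5 and SNHG1 (horizontal axis, nt from the 5′ end of the gene), above the exons of the canonical transcript (blue) and the embedded snoRNAs (red). The peaks stand at the snoRNAs, and the long last exons are almost empty.

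The density in exons was compared with that in the remaining intron. Over all genes with at least 50 events, exon density was above intron density in every library in 44.2% of 5051 genes and below it in every library in 4.77%. With GENCODE snoRNAs, GAS5, SNHG1 and SNHG5 were below in 4 of 4 libraries, with mean log2 ratios of exon to intron density of -2.38 ± 0.87, -2.28 ± 1.45 and -2.73 ± 1.39 (SD, n = 4). By an exact permutation test that flips the signs of the libraries, two-sided, p was 0.125 for each, which is the lowest that 4 libraries can give, and the adjusted p over all genes tested was 0.255. The exons of SNHG5 held 0, 1, 0 and 1 events in replicates 1 to 4. Those of SNHG1 held 0 in replicate 3, beside 2 events in intron. Where exons held 0 events, the ratio could only be below, and its size rests on the count added to both parts. Intron in this comparison includes the snoRNAs that GENCODE 44 lacks, in GAS5 all of them. Of the 1146 events of GAS5, 1131 counted as intron and 1093 lay in RefSeq snoRNA units. The ratios of GAS5, SNHG1 and SNHG5 thus do not set exons against intron alone. ZFAS1 was above in 2 libraries and below in 2. With snoRNA units taken out, the share of all genes was 44.3% above and 4.72% below. GAS5 was then above in 4 of 4 libraries, with a mean log2 ratio of 2.20 ± 0.46 (SD, n = 4; exact permutation p = 0.125, adjusted p = 0.255). SNHG5 and ZFAS1 were above in 2 libraries and below in 2, and SNHG1 had no exonic or intronic event in replicate 3 and was left out. SNHG6, SNHG8 and SNHG12 could not be tested in either way, for lack of events in replicate 3 or in all. With RefSeq snoRNAs taken out but not the 5 nt on either side, the log2 ratio of GAS5 was -1.04 ± 1.27 (SD, n = 4). With the exons of all transcripts and GENCODE snoRNAs the log2 ratio was 7.37 in GAS5 and 3.37 in SNHG5, and without retained-intron transcripts 1.69 and 3.41. The direction in these hosts thus depended on the exon set, and in GAS5 also on the removal of the snoRNAs together with the 5 nt.

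The density of the units was also compared with that of the rest of the host. This comparison took the host's own RNA as reference, and 332 annotated snoRNA hosts could be tested. Units were denser than the rest of the gene in every library in 51 of them, which is 15.4%. Of the 7 hosts, GAS5, SNHG1, SNHG5 and ZFAS1 could be tested, and 4 of 4 were called. Events in units counted towards the minimum for testing. Outside units SNHG1 held 17 exonic and 5 intronic events and SNHG5 2 and 27, so both passed through their units. In replicate 3, SNHG1 held 3 events in units and 0 elsewhere. Hosts without events in units could not be called, so 4 of 4 cannot be set against 15.4%. The log2 ratios of the densities were 7.53 ± 0.78 in GAS5, 5.66 ± 1.62 in SNHG1, 8.83 ± 1.73 in SNHG5 and 7.70 ± 0.66 in ZFAS1 (SD, n = 4; exact permutation p = 0.125 each, adjusted p = 0.161). Of the other 328 hosts, 206 held 0 events in their units, 47 were denser in their units in every library, and 40 of these were protein-coding. Without replicate 3, 6 of the 7 hosts and 97 hosts in all were called. Leaving out a library asks for fewer like signs and can let more hosts be tested. These counts can therefore not be set against 51 of 332.

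The units comprised 26 box C/D and 5 box H/ACA snoRNAs. The box C/D units held 325, 839, 113 and 698 events in replicates 1 to 4, or 862 events per kb over the pooled libraries. The box H/ACA units held 5, 14, 3 and 17 events, or 58.8 per kb. Of the 31 units, 27, 30, 11 and 29 had an event in replicates 1 to 4, and 11 had an event in all 4. Reads that map to a single place were kept, so snoRNAs with near-identical copies elsewhere may be counted too low.

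GAS5 carries 10 box C/D snoRNAs and SNORA103, and the order of its snoRNAs differed between libraries. SNORD80 held 23, 111, 13 and 83 events, at 204 ± 178 CPM (SD, n = 4) or 119 ± 58.8 CPM without replicate 4, and was the highest in replicates 2 and 4. SNORD44, used in many laboratories as a reference small RNA, held 34, 48, 15 and 59 events, at 157 ± 115 CPM (SD, n = 4) or 100.2 ± 20.04 CPM without replicate 4, and was the highest in replicate 1. SNORD76 held 20, 48, 29 and 52 events, at 165 ± 113 CPM (SD, n = 4), and was the highest in replicate 3. These 3 levels did not differ beyond the spread between libraries.

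SNORD47 held 17, 70, 0 and 42 events, SNORD79 28, 55, 11 and 31, and SNORD75 24, 28, 8 and 60. SNORD81 held 6, 37, 25 and 23 events, so that replicate 3, which had none on SNORD47, was at 199 CPM on SNORD81 and above each other library. The other GAS5 snoRNAs were lower. SNORD78 held 56 events in the pooled libraries, SNORD77 22, SNORD74 15 and SNORA103 0.

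In SNHG1, SNORD22 held 10, 48, 0 and 40 events and SNORD26 10, 26, 1 and 45. SNORD25, SNORD30, SNORD29, SNORD27, SNORD31 and SNORD28 held 76, 56, 45, 43, 40 and 29 events in the pooled libraries, and a second locus annotated as SNORD22 held 2. In SNHG5, SNORD50A held 10, 60, 3 and 30 events and SNORD50B 5, 20, 0 and 24. SNORD87 of SNHG6 held 9, 57, 0 and 21, which was the largest number outside GAS5, SNHG1 and SNHG5. The replicate 3 counts on the SNHG1 snoRNAs summed to 3, whereas those on GAS5 snoRNAs summed to 101.

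In ZFAS1, SNORD12C, SNORD12B and SNORD12 held 66, 44 and 40 events. In SNHG12, SNORD99 held 22 events, and SNORA61, SNORA16A and SNORA44 held 12, 11 and 5. SNORA24 of SNHG8 held 11. The 10 snoRNAs with the most events, all of box C/D, held 1288 events, or 64.0% of the events in units.

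**Figure D3:**
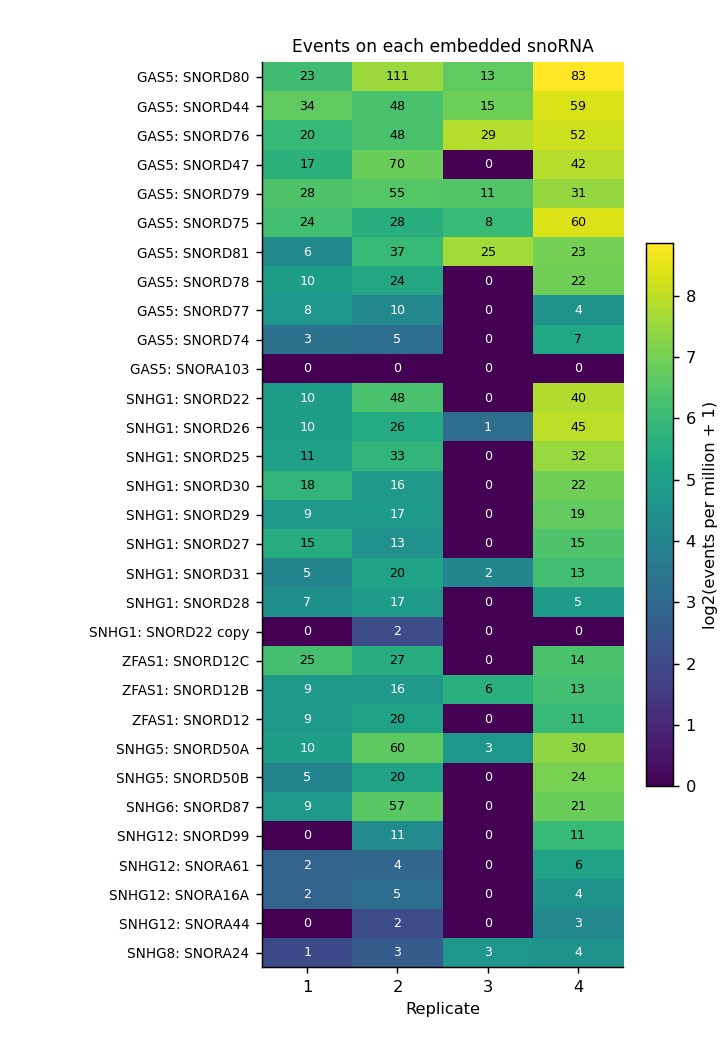
Events on each snoRNA with 5 nt on either side (rows, grouped by host) in replicates 1 to 4 (columns). Numbers are event counts, and colour is log2(CPM + 1). Replicate 3 holds events on 11 of 31 snoRNAs, and the 5 SNORA entries hold 0 to 12 pooled events each.

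The deposited clusters, groups of positions that the authors called significant, were made from the same events. The list for the pooled libraries had 29 clusters in the 7 hosts. All 29 touched a snoRNA unit, and 1 also touched an exon. They held 1909 of the 2190 events and touched 27 of the 31 units. The 4 units without a cluster were SNORD77, SNORA103, SNORA44 and the second SNORD22 locus, with 29 events together. The lists of replicates 1 to 4 had 12, 23, 4 and 21 clusters in the hosts, and each of these touched a unit.

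The largest cluster of GAS5 held 227 events on SNORD80 (chr1:173864855-173864908), and that of SNHG1 held 94 on SNORD22 (chr11:62852958-62853040). The largest clusters of ZFAS1, SNHG5 and SNHG12 held 66 events on SNORD12C (chr20:49278943-49279003), 103 on SNORD50A (chr6:85677314-85677371) and 22 on SNORD99 (chr1:28578773-28578823). SNHG6 and SNHG8 had 1 cluster each, with 88 events on SNORD87 and 11 on SNORA24. The SNHG6 cluster was the longest of the 29, at 163 nt, and was the one that reached an exon.

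The place of events along the box C/D snoRNAs was then counted. The method bears on it: the event is the nucleotide before the cDNA, so a cDNA that reaches the first nucleotide gives position -1, and an event near the 3′ end leaves a cDNA that may be too short to map uniquely. The ends can therefore not be compared with each other. The 5 nt before the first nucleotide of the RefSeq entry held 76 of 325, 311 of 839, 22 of 113 and 278 of 698 events in replicates 1 to 4, or 29.9% ± 10.0 (SD, n = 4). The first nucleotide held 6.56% ± 2.83 (SD, n = 4). The 5 nt after the last nucleotide held 0 of 1975 events. By counting error alone this allows up to 0.152% of the mapped events. It sets no limit on crosslinks there, because their cDNAs may be too short to map. The last 20 nt of the snoRNAs held 17 events, in a stretch where short cDNAs may also have been lost. Replicates 2 and 4 had the larger shares before the first nucleotide, and replicate 3 the smallest. With each position counted a single time the share was 15.6% ± 0.672 (SD, n = 4). With the GENCODE bounds, which are wider or narrower by a few nt in some snoRNAs, it was 12.3% ± 10.99 (SD, n = 4). That value leaves out the snoRNAs of GAS5 and SNORD29, SNORD31 and SNORD50A, so the bounds and the set of snoRNAs changed together. The pooled shares of the last 3 were 66.7%, 60% and 55.3%.

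**Figure D4:**
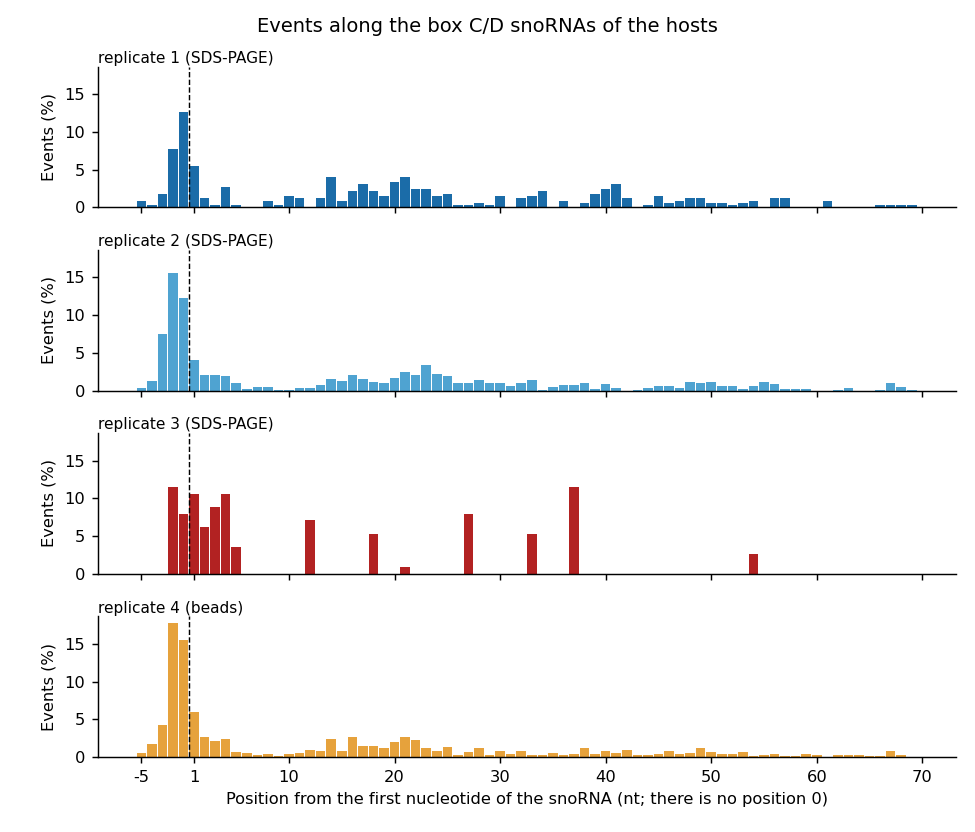
Share of the events on box C/D snoRNAs (vertical axis, percent of the library's events on them) by position from the first nucleotide of the RefSeq entry (horizontal axis, nt), in a panel per library, with a dashed line before position 1. In replicates 1, 2 and 4 the highest bar stands 1 or 2 nt before the first nucleotide, and in replicate 3, with 113 events, single positions such as 37 reach the same height.

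Counted from the RefSeq start, the place of the peak differed between snoRNAs. In SNORD44, position -1, the nucleotide before the first, held 22, 27, 7 and 39 events in replicates 1 to 4, that is 95 of 156. In SNORD80, position -2 held 11, 34, 13 and 31, that is 89 of 230, and position -3 held 63. In SNORD47, position -2 held 52 of 129 events, and in SNORD50B position -1 held 28 of 49. These are the capitals just before the first nucleotide in the sequences shown for SNORD44, SNORD80 and SNORD47.

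Other snoRNAs had their highest position inside the RefSeq bounds. In SNORD75 it was nucleotide 14, with 13, 11, 0 and 14 events. In SNORD26 it was nucleotide 21, with 26 of 82 events, and in SNORD87 nucleotide 23, with 20 of 87. In SNORD81 it was nucleotide 4, with 3, 9, 12 and 5 events, and 0 events lay before the first nucleotide. SNORD12 and SNORD12B also had 0 events there. The RefSeq start lies at different distances from box C. Box C began at nucleotide 10 in SNORD81 and 12 in SNORD12, against 5 in SNORD80 and 7 in SNORD44. The capitals of SNORD81 at nucleotides 3 and 4 thus also lay ahead of box C. In SNORD87 box C began at nucleotide 5, ahead of its highest position. Of the 25 box C/D snoRNAs with at least 10 events, 12 had their highest position in the 5 nt before the first nucleotide, and 11 had it past nucleotide 2.

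Most positions were found in 1 library. The 31 units had events at 499 positions, of which 317 were found in 1 library, 182 in at least 2 and 7 in all 4. The shared positions held 75.0% of the events of the units. A position with more events is more likely to be found in several libraries, and the share that this alone gives was not computed. At the events of the box C/D units, the nucleotide was T (U in the RNA) in 34.7% ± 4.33 (SD, n = 4) and A in 24.5% ± 2.48, whereas the units consist of 29.6% T and 29.1% A. G was at 22.9% ± 1.19 of the events and 22.4% of the nucleotides, and C at 17.9% ± 2.88 and 18.9%.

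GANGA with N other than T, the motif family with GAAGA that the study examined, was searched near the events on the sense strand. The window for the start of a motif reached from 5 nt before the event to 30 nt after it, along the spliced RNA. In the exons, it held a motif for 7 of 18, 9 of 28, 2 of 4 and 4 of 12 events in replicates 1 to 4, or 22 of 62. Of all positions in the spliced canonical transcripts, 6.999% had a motif in that window. GAAGA alone gave 15 of 62 events and 4.07% of positions. Pooling weights the hosts by length, and the share of positions differed between them. In ZFAS1 the count was 7 of 11 exonic events beside 4.77% of positions, and in GAS5 5 of 15 beside 9.38%. SNHG1 gave 4 of 17 beside 13.2%, SNHG12 1 of 6 beside 15.4%, and SNHG8 0 of 3 beside 4.25%. SNHG6 gave 4 of 8 beside 6.64%, and SNHG5 1 of 2 beside 9.27%. These are small numbers, and neighbouring events share a motif.

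In the snoRNA units the same window held a motif for 14.6% ± 0.784 of the events (SD, n = 4), and for 14.9% of the nucleotides. For GAAGA alone the shares were 6.14% ± 4.27 (SD, n = 4) and 9.31%, with 0 of 116 events in replicate 3. Of the 26 box C/D snoRNAs, 8 held a motif of the family and 6 held GAAGA, against 13.2% and 7.21% of the 75-nt windows of the hosts outside the units. SNORD80, SNORD44 and SNORD47 held none of them. The motif share of the events in units thus lay within 1 SD of the share of their nucleotides, and that in exons was above it in each library.

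Other genes of snoRNA biology were counted in the same way. Of all annotated genes, 1.22% reached 200 events. The share was 3.60% of the 139 long non-coding snoRNA hosts outside the group, and 0.208% of 18720 long non-coding RNAs with no snoRNA. Of 20 further non-coding snoRNA hosts, 2 reached 200 events. SNHG16 held 204 events, SNHG29 202 and SNHG3 196, and their units held 42.6%, 33.7% and 67.9% of them. Hosts with fewer events, picked with their values known, had unit shares like those of the group, with 91.0% of 78 events in SNHG25, 81.1% of 74 in SNHG7 and 80.4% of 112 in SNHG32. Over the 7 of these hosts with at least 50 events the median unit share was 67.9%, against 89.0% over the 6 of the group with that many. Of 520 protein-coding snoRNA hosts, 89 reached 200 events and 321 held at least 50. The median unit share of those 321 was 0%, and 22 had more than 50% of their events in units.

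Of 17 genes for snoRNP proteins and assembly factors, 2 reached 200 events. For this list and the next, the share over all annotated genes was 1.22%. NOP56 held 641, NOP58 365 and NOLC1, a nucleolar chaperone of snoRNPs, 185. NOP56 and NOP58 host snoRNAs too, and 61.0% and 27.9% of their events lay in units, whereas 90.8% of the events of NOLC1 lay in exons. Of the 10 genes of this list that could be tested with GENCODE snoRNAs, 7 had exons denser than introns in every library. Of 8 nonsense-mediated decay factors, which degrade several spliced host RNAs, SMG5 (237 events), UPF1 (221) and SMG1 (208) reached 200. Of these factors, 7 of 7 tested had exons denser than introns in every library. Over all 5051 genes tested the share was 44.2%, and over 295 protein-coding snoRNA hosts it was 142 genes.

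All snoRNA genes of GENCODE 44 together held 7336 events, and 606 of these (8.26%) lay inside the 7 hosts. This share omits all snoRNAs of GAS5, and SNORD29, SNORD31 and SNORD50A, which that file lacks. With RefSeq entries added, snoRNAs of the 7 hosts held 1345 events. By the pattern over the 4 libraries, the genes nearest to the sum of the hosts among 763 other genes with at least 200 events were NOP56, HSP90AA1, a cytosolic chaperone, and KDM5C, a histone demethylase. The Euclidean distance of log2(CPM + 1), centred on the mean of the gene, was 0.161 for NOP56, 0.185 for HSP90AA1 and 0.258 for KDM5C. NOP56 was at 368, 446, 326 and 1152 CPM in replicates 1 to 4, thus also highest in replicate 4.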

How the data were processed

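The 4 libraries of PR100-FLAG in HEK293T were used. The authors collapsed PCR copies by the random barcode, mapped reads to GRCh38 with STAR (named in the submitters' processing notes, no version), kept uniquely mapping reads, and deposited counts of unique cDNAs per crosslinked position and strand, without normalisation. The deposited clusters of significant positions carry sums of these counts. Replicates 3 and 4 lie below the minimum depth that the methods state. The pooled list equalled the sum of the libraries at every position.

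Counts were assigned by strand to GENCODE 44 genes. Each event went to a snoRNA, else to an exon of the Ensembl canonical transcript, else to intron. RefSeq snoRNAs (same genome, no strand given) were read on the host strand. For log2 density ratios a total of 1 count was shared out between both parts by length, because simulated data showed that the planned 0.5 added to each part favoured the shorter part. Genes with at least 50 pooled events, and an event in the compared parts in every library, were tested by exact sign-flip permutation over libraries with Benjamini-Hochberg adjustment. The script was tested on simulated data. The depth was 125694 to 604816 events, which sets the precision, and limits from a count of 0 cover counting error only.

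Named were all 7 hosts, the 10 snoRNAs with the most events and those in pooled clusters, the top cluster of each host, the 3 genes of most events in each list, and the 3 genes nearest by library pattern. Members and lists were chosen with earlier results of these data known. There were 29 planned and 13 added alternatives. Python 3.11.15, numpy 2.4.6, pandas 2.3.3, pysam 0.24.0 and matplotlib 3.10.9 were used.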

Additional observations from a re-analysis of the deposited data

Results flagged for a closer look

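In 36 sets of 4 library values, 4 had a highest value that stood apart from the other 3 by more than Dixon's critical gap, and chance gives this in about 1 of 20 sets. In all 4 the high library was replicate 4, the only one purified on beads. The summed level of the 7 hosts was 4147 CPM there and at most 1529 CPM in the others. SNORD44 was at 328 CPM, against at most 119 CPM, SNORD79 at 173 CPM, against at most 90.9 CPM, and SNORD75 at 334 CPM, against at most 71.8 CPM. These sets overlap, since the snoRNAs are part of the sum. The part of the purification in these levels was not tested, and with 1 bead library it cannot be told apart from that library.

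Outside the strand that was analysed, the opposite strand of the hosts held 18 events, 11 of them in ZFAS1 and 5 in GAS5.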

How the results depend on the processing

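Of the recomputed summary values, 105 moved by less than 1 SD (counts, by at most 1.5 times) and 30 by more. The split of the events depended most on what counted as a snoRNA or an exon. With exons of all transcripts, exons held 72.1% and intron 4.02% of the events, and without transcripts annotated as retained introns 53.0% and 23.1%. The cause was not tested. These shares used GENCODE snoRNAs, which lack those of GAS5. Events went to snoRNAs before exons, so the share of RefSeq units, 90.6%, does not depend on the exon set. Each position counted a single time gave 6.78% in exons, and events in pooled clusters alone gave 0.0370%. RefSeq snoRNAs gave 64.3% in snoRNAs and 32.6% in intron, at 1223 CPM in snoRNAs instead of 505. With 5 nt on either side these were 90.6%, 6.29% and 1825 CPM.

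The 3 hosts with exons below introns fell to 0 with exons of all transcripts, with or without retained introns, and with RefSeq units, to 1 with positions counted a single time, and to 2 with RefSeq snoRNAs without the 5 nt or with 0.5 added to each count. The log2 ratio of GAS5 turned from -2.38 to 7.37, 1.69 and 2.20 in the first 3 of these, and that of SNHG5 from -2.73 to 3.37 and 3.41 in the first 2. Over all genes, 241 were below in every library. This became 145 with either set of exons, 114 with positions counted a single time, and 648 or 92 with a minimum of 20 or 100 events. With 0.5 added to each count it was 15. The 2234 genes above became 1295 with a minimum of 100 events, 3807 with 0.5 added, and 2251 to 4251 when a library was left out, the highest without replicate 3. A call asks for fewer like signs when a library is left out. The 3 hosts below in all 4 libraries are therefore called whichever is left out, and this is no separate check.

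The share before the first nucleotide of box C/D snoRNAs was 15.6% with positions counted a single time and 12.3% with GENCODE bounds. The latter also leaves out the snoRNAs of GAS5 and SNORD29, SNORD31 and SNORD50A. The count of hosts with denser units was 51 to 97 when a library was left out, again highest without replicate 3. With fewer libraries the rule can only call as many hosts or more. The share of exonic events near a motif was 35.5%, 16.1% in a window of 10 nt on either side, and 24.2% for GAAGA alone. Depth limits the smaller hosts, in which replicate 3 holds 0 to 7 events. No paired analysis was possible because all libraries belong to a single condition.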
